A study of Mus musculus with 20 samples.

Results

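The complement genes described here are 9 genes that a macrophage can express: C1qa, C1qb and C1qc, which encode the chains of C1q, then C3, Cfb, Cfp, C3ar1, C5ar1 and C5ar2. They were chosen by symbol from the 51456 genes of the deposited tables, and all 9 were present and tested. RNA was measured by strand-specific poly-A sequencing in bone-marrow-derived macrophages, which are cells grown from mouse marrow in the growth factor CSF-1 (also called M-CSF), here at 50 ng/ml for 6 days. Cultures came from C57BL/6 mice aged 4 to 5 months in 3 genotypes: TREM2 5bp KO (KO, 5 libraries, written TREM2-/- in the protocols), TREM2 R47H KI (R47H, 5 libraries) and WT (10 libraries, Rep1 to Rep10). Per the labels' protocols there were 5 animals per genotype and each mutant line had its own wild-type littermates, but the labels do not say which 5 WT libraries belong to which line. The labels do not give the sex of the animals or the method by which either allele was made. All groups received the same CSF-1 and no other stimulus is given in the labels.

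Complement is a cascade of proteins that tag targets for uptake and lysis. C1q, built from the 3 chains, recognises antibody, dying cells and other ligands and starts the classical pathway, and macrophages are its main source in the body. C3 is the protein on which all pathways converge, factor B (Cfb) joins cleaved C3 to form the alternative pathway's convertase, and properdin (Cfp) stabilises that convertase. The small fragments released from C3 and C5, called anaphylatoxins, are sensed by the receptors C3ar1 and C5ar1, while C5ar2 is a second C5a receptor that does not couple to G proteins. Trem2 is a lipid-binding receptor on microglia and tissue macrophages whose adaptor is Tyrobp, and its R47H variant is known in humans as a risk variant for Alzheimer's disease.

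The sequences below are the 250 bases before the RefSeq start of 5 members (GRCm38.p6, all on the minus strand, printed 5′ to 3′ along the gene). They are shown because these members carry the differences reported below: the C1q chains, C3 and Cfp were higher in KO macrophages and C5ar1 was lower. Capitals mark matches, on either strand, to 7 short motifs: GAGGAA (letters found in PU.1 sites), TGCTGA (MAF), TTGCNNAA (C/EBP), TGANTCA (AP-1), and 3 longer ones, of which 2 are IRF motifs and 1 is an NF-kB motif.
C1qb (chr4:136886201-136886450): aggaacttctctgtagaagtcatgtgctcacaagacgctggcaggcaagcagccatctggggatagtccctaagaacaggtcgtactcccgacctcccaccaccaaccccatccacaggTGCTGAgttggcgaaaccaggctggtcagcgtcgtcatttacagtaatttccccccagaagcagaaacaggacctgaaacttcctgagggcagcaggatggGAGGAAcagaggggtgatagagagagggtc
C1qc (chr4:136892915-136893164): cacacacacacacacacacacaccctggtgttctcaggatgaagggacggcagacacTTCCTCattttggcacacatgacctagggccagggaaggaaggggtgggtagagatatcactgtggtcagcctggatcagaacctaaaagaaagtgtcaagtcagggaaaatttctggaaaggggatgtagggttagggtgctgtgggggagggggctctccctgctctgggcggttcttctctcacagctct
C3 (chr17:57228137-57228386): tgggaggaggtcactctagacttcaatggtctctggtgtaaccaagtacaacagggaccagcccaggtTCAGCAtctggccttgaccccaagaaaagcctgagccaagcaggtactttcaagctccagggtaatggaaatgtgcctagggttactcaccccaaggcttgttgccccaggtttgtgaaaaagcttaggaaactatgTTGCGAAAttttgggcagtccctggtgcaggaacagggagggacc
Cfp (chrX:20931556-20931805): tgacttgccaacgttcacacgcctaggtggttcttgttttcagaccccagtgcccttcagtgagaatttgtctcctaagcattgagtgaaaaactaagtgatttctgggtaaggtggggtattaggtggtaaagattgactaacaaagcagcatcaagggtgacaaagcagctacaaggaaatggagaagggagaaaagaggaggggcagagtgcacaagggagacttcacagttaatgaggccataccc
C5ar1 (chr7:16259339-16259588): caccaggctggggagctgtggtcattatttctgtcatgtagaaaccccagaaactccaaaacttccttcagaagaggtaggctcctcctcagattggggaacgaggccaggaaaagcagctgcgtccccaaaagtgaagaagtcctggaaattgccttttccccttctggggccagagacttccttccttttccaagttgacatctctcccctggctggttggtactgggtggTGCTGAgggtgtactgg
Positions are counted backwards from the start and name the first base of a match along the gene. The C1qb window held TGCTGA at position -131 and GAGGAA at position -30. The C1qc window held GAGGAA on the opposite strand at position -193. The C3 window held TGCTGA on the opposite strand at position -182 and TTGCGAAA, a match to TTGCNNAA, at position -45. The C5ar1 window held TGCTGA at position -17, and the Cfp window held none of the 7. No match overlapped another in these windows, although GAGGAA can share letters with an IRF motif. Of 32817 RefSeq promoter windows of the same length, 23.3% held GAGGAA, 16.1% held TGCTGA and 9.57% held TTGCNNAA, so matches of this kind are common. The table held entries for 7 of the 9 members.

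The genes lie at separate loci, apart from 2 clusters. On GRCm38 (GENCODE M21) the C1q chains sit side by side on the minus strand of chromosome 4, with C1qb at chr4:136880129-136886187, C1qc at chr4:136889804-136893065 and C1qa at chr4:136895917-136898803. C5ar2 (chr7:16234585-16244154) and C5ar1 (chr7:16246743-16259540) are neighbours on chromosome 7. C3 (chr17:57203970-57228136) and Cfb (chr17:34856374-34862518) share chromosome 17 with Trem2, at distances of 8.86 and 13.49 Mb. Cfp is X-linked (chrX:20925454-20931555), and C3ar1 lies at chr6:122847138-122856161.

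Trem2, the targeted gene, was lowest in the libraries labelled KO. It was at 23.7 to 24.8 FPKQ in the KO libraries, at 673, 772, 794, 496 and 527 FPKQ in R47H Rep1 to Rep5, and between 690.5 and 900.7 FPKQ in WT. Trem2 was also lower in R47H than in WT by limma, with a difference of -0.33 (SE 0.09, adjusted p = 0.0110), and R47H Rep1, Rep4 and Rep5 were below the WT range. FPKQ is the deposited unit, a per-length abundance like FPKM, which the sources used here do not define further. The macrophage marker Lyz2 averaged 29652 FPKQ in KO, 23932 FPKQ in R47H and 20996 FPKQ in WT. The other 8 macrophage markers summed to 4884 to 5082 FPKQ in KO, 5170 to 5550 FPKQ in R47H and 4730 to 5022 FPKQ in WT. Of the 8 tested markers of the list, 4 rose in KO, Mertk the most at 1.84, and 2 fell (Cd14 by 1.26 and Fcgr1 by 0.43 on the log2 scale). In R47H 5 rose, Mertk the most at 0.84, and 1 fell. Over all tested genes 28.2% rose and 23.7% fell in KO, and 13.4% rose and 7.83% fell in R47H. T and NK cell markers stayed at or below 0.316 FPKQ in sum in every library, and the neutrophil markers summed to 43.0 to 77.0 FPKQ in KO, 46.4 to 110 FPKQ in R47H and 41.5 to 77.3 FPKQ in WT. The 4 endothelium markers summed to 4.09 to 5.68 FPKQ in KO, 3.88 to 4.58 FPKQ in R47H and 2.18 to 3.83 FPKQ in WT, without overlap of either mutant with WT. Kdr, the only tested one, rose by 0.41 in KO and by 0.43 in R47H (limma adjusted p = 6.30e-04 and 0.00117). Pecam1, which had no test, averaged 1.06 FPKQ in KO, 0.390 FPKQ in R47H and 0.169 FPKQ in WT. Its lowest KO library, at 0.805 FPKQ, was above its highest WT library, at 0.322 FPKQ. Cdh5 stayed at or below 0.185 FPKQ and Emcn at or below 0.0272 FPKQ in every library. The sum over all genes ran from 605492 to 634825 FPKQ in KO, 590190 to 680147 FPKQ in R47H and 556288 to 602182 FPKQ in WT. Xist, the RNA of the inactive X chromosome, was above 1 FPKQ in 4 of 5 KO, 4 of 5 R47H and 4 of 10 WT libraries. Depth, estimated from the step between low values, was about 46.4 to 71.1 fragments for a value of 1 FPKQ in a gene of 2 kb.

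In KO macrophages 6 of the 9 complement genes were higher than in WT, 2 were lower and 1 did not pass the test, and in R47H macrophages 4 were higher, 0 were lower and 5 did not pass, with 0 lower also at an unadjusted limma p under 0.05. The test was limma on log2(FPKQ + 1) over 10843 genes with a Benjamini-Hochberg adjusted p under 0.05. In the KO comparison 52.0% of all tested genes passed, 28.2% higher and 23.7% lower, and in the R47H comparison 21.2% passed, 13.4% higher and 7.83% lower. At 1.5-fold or more, 12.2% of all genes passed in KO and 3.14% in R47H, and 6.70% did in R47H against KO. The median difference over the 9 members was 0.65 in KO and 0.41 in R47H on the log2 scale, beside 0.01 and 0.04 over all tested genes. The members and the lists below were chosen with earlier results of these data known, so their counts and medians are descriptive only. Both comparisons use the same 10 WT libraries.

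**Figure D1:**
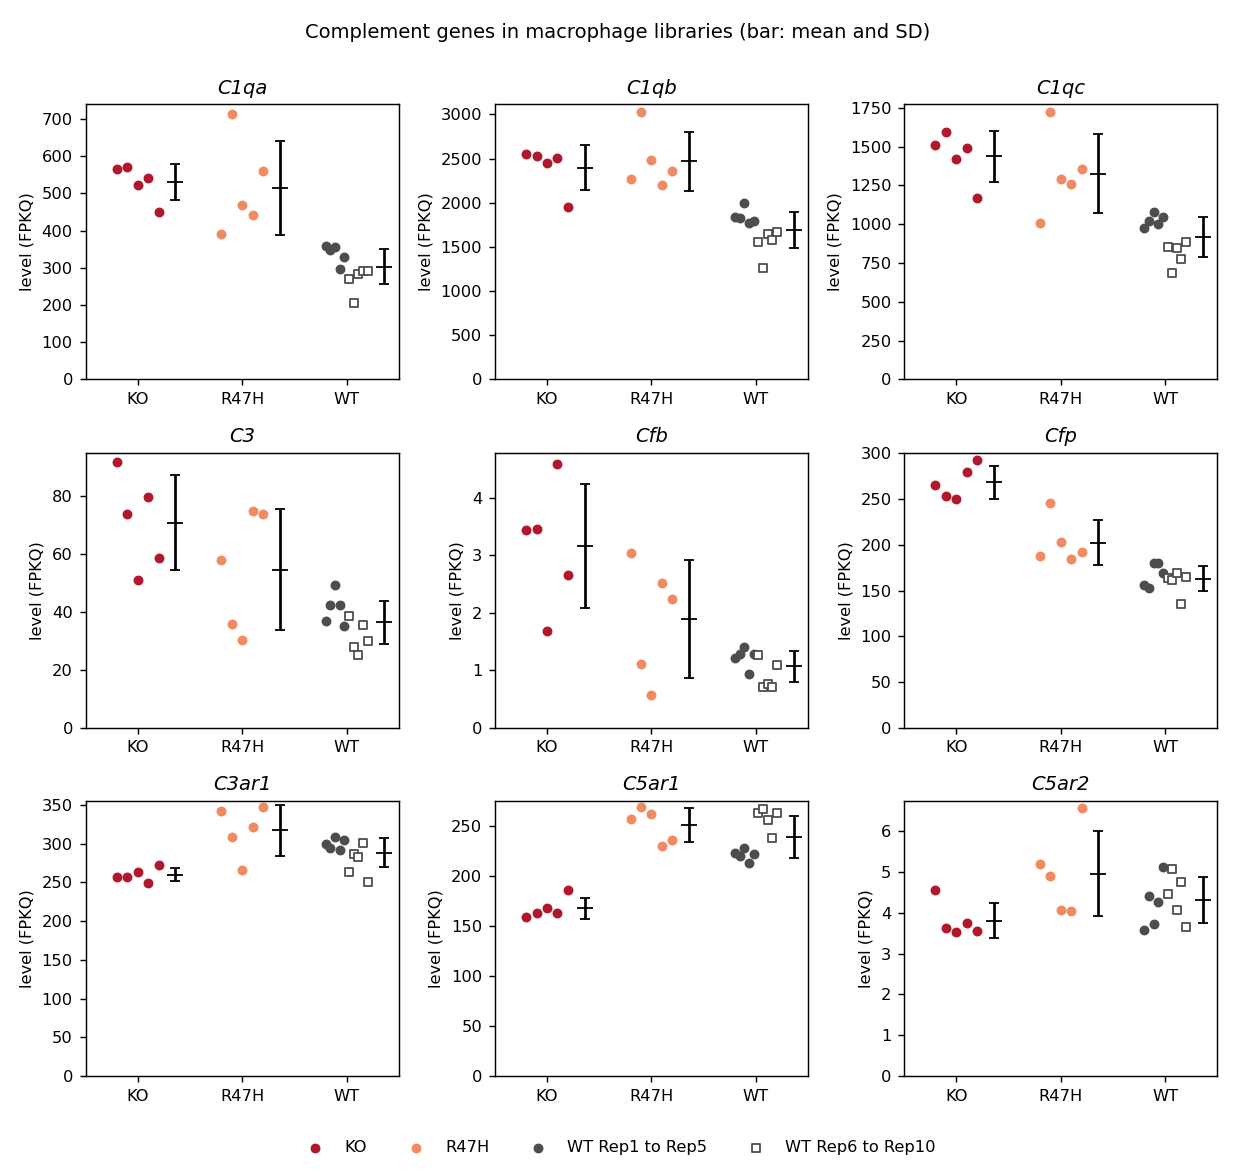
Level of each of the 9 complement genes (FPKQ, linear axis from 0) in every library, with KO, R47H and WT from left to right, WT Rep6 to Rep10 as open squares, and bars for mean and SD. All KO points of C1qa, C1qc, C3, Cfb and Cfp lie above all WT points, and all KO points of C5ar1 lie below them.

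The C1q chains were the most abundant complement transcripts and rose in both mutants. C1qa, the gene of the A chain, was at 566, 571, 523, 542 and 450 FPKQ in KO Rep1 to Rep5, at 392, 714, 469, 443 and 559 FPKQ in R47H Rep1 to Rep5, and at a lowest, median and highest of 206, 294 and 358 FPKQ in WT. Every KO and every R47H library was above every WT library, and R47H Rep2 was the highest of all. In limma C1qa rose by 0.82 in KO (SE 0.13, adjusted p = 1.15e-05) and by 0.75 in R47H (SE 0.13, adjusted p = 1.57e-04) on the log2 scale. Among all tested genes, every library was above WT for 15.4% in KO and for 3.77% in R47H, and below WT for 13.3% and 3.14%. In bulk RNA, more cells that make a transcript and more transcript per cell cannot be told apart.

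C1qb, the gene of the B chain, had the highest level of the 9 genes in each genotype. Its level was 2556, 2530, 2446, 2505 and 1950 FPKQ in KO Rep1 to Rep5, 2265, 3025, 2486, 2201 and 2358 FPKQ in R47H Rep1 to Rep5, and 1262, 1722 and 1992 FPKQ at the lowest, median and highest in WT. KO Rep5 lay just below the highest WT library, while the R47H libraries did not overlap with WT. C1qb rose by 0.50 in KO (SE 0.09, limma adjusted p = 1.21e-04) and by 0.54 in R47H (SE 0.09, adjusted p = 2.30e-04). Under quantile normalization, which sets each library's values by rank, the KO difference was 0.26 (adjusted p = 0.0199), smaller by over 1.5 times.

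C1qc, the gene of the C chain, was at 1508, 1595, 1421, 1487 and 1169 FPKQ in KO Rep1 to Rep5, at 1007, 1719, 1293, 1257 and 1352 FPKQ in R47H Rep1 to Rep5, and at 684, 928 and 1079 FPKQ at the lowest, median and highest in WT. All KO libraries were above WT, and R47H Rep1 lay within the WT range. C1qc rose by 0.65 in KO (SE 0.11, limma adjusted p = 4.86e-05) and by 0.52 in R47H (SE 0.11, adjusted p = 0.00177). The summed level of the 3 chains was 4364 ± 459 FPKQ in KO (SD, n = 5), 4308 ± 691 FPKQ in R47H (SD, n = 5) and 2913 ± 370 FPKQ in WT (SD, n = 10).

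R47H and KO did not differ detectably in any C1q chain. R47H minus KO was -0.07 for C1qa (SE 0.14, limma adjusted p = 0.733), 0.04 for C1qb (SE 0.11, adjusted p = 0.797) and -0.13 for C1qc (SE 0.13, adjusted p = 0.446). With standard errors of this size, a difference of 2 SE could be missed. With R47H set against WT Rep6 to Rep10 and KO against WT Rep1 to Rep5, the differences between those changes were 0.27 for C1qa, 0.30 for C1qb and 0.22 for C1qc, which did not pass either (limma adjusted p = 0.320, 0.127 and 0.358). Lyz2 and the endothelium marker sum, given above, were also higher in KO and in R47H than in WT, and their part in the C1q differences was not tested.

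The chains moved together from library to library. C1qb was 4.52 ± 0.138 times C1qa in KO (SD, n = 5), 4.90 ± 0.678 times in R47H (SD, n = 5) and 5.63 ± 0.311 times in WT (SD, n = 10), on the per-length scale. The KO ratios, 4.33 to 4.67, did not overlap with the WT ratios, 5.15 to 6.13, since C1qa rose more than C1qb. R47H ratios, 4.22 to 5.78, overlapped with both. C1qc was 2.70 ± 0.0751 times C1qa in KO, 2.60 ± 0.194 times in R47H and 3.04 ± 0.227 times in WT. Values from RSEM can move fragments between similar genes, so ratios of paralogs are less certain than sums.

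Within the 10 WT libraries alone, where genotype does not vary, C1qa and C1qb correlated with Pearson's r = 0.965 and Spearman's rho = 0.976 (permutation p = 3e-05 each, Benjamini-Hochberg adjusted 7.2e-04 and 0.00108 over the 36 pairs of members). Without the 2 libraries farthest from the median r was 0.917, and after subtracting the means of WT Rep1 to Rep5 and of Rep6 to Rep10 it was 0.919. C1qb and C1qc gave r = 0.948 and rho = 0.879 (permutation p = 4e-05 and 0.00159, adjusted 7.2e-04 and 0.0191), and r = 0.904 without the 2 extreme libraries and 0.885 within the sets. C1qa and C1qc gave r = 0.892 and rho = 0.818 (permutation p = 7.5e-04 and 0.00605, adjusted 0.00900 and 0.0545), and r = 0.830 without the extremes and 0.731 within the sets. Over all 20 libraries as deviations from group means, C1qa was most like C1qc (r = 0.92) and then C1qb (r = 0.91) among 10842 other genes.

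C3 and Cfb, the components of the alternative pathway's convertase, rose in KO, while their R47H levels split between libraries. C3 was at 91.6, 73.6, 50.9, 79.6 and 58.6 FPKQ in KO Rep1 to Rep5, at 58.0, 35.8, 30.4, 74.9 and 73.9 FPKQ in R47H Rep1 to Rep5, and at 25.3, 36.2 and 49.2 FPKQ at the lowest, median and highest in WT. All KO libraries were above WT, and so were R47H Rep1, Rep4 and Rep5, whereas R47H Rep2 and Rep3 lay inside the WT range. C3 rose by 0.94 in KO (SE 0.19, limma adjusted p = 3.56e-04), and the R47H difference of 0.51 did not pass (SE 0.19, adjusted p = 0.0668). Without WT Rep3, R47H Rep2 or R47H Rep3 the R47H difference would pass, at 0.56, 0.64 and 0.69 (adjusted p = 0.0455, 0.0357 and 0.0117). With any other single library left out the R47H difference did not pass, and was as low as 0.37 (limma adjusted p up to 0.196).

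Cfb, which sits in the class III region of the major histocompatibility complex in mouse, was the least abundant member. It was at 3.43, 3.46, 1.68, 4.58 and 2.65 FPKQ in KO Rep1 to Rep5, at 3.04, 1.11, 0.57, 2.53 and 2.23 FPKQ in R47H Rep1 to Rep5, and at 0.706, 1.15 and 1.40 FPKQ at the lowest, median and highest in WT. The same 3 R47H libraries that were high in C3 were above WT, R47H Rep2 was within its range and R47H Rep3 was below it. Cfb rose by 0.98 in KO (SE 0.18, limma adjusted p = 1.31e-04), and the R47H difference of 0.41 did not pass (SE 0.18, adjusted p = 0.118), although it would without R47H Rep3, at 0.61 (adjusted p = 0.0121). With any other single library left out the R47H difference did not pass, and was as low as 0.27 (limma adjusted p up to 0.324). With a pseudocount of 0.1 the KO difference was 1.45 (adjusted p = 2.84e-04), since a pseudocount of 1 compresses changes at such low levels. R47H was lower than KO by limma for Cfb, with a difference of -0.57 (adjusted p = 0.0387) among 40.7% of genes that passed in that comparison, but the call was lost without any of 5 single libraries (-0.53 to -0.37, adjusted p up to 0.139).

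**Figure D2:**
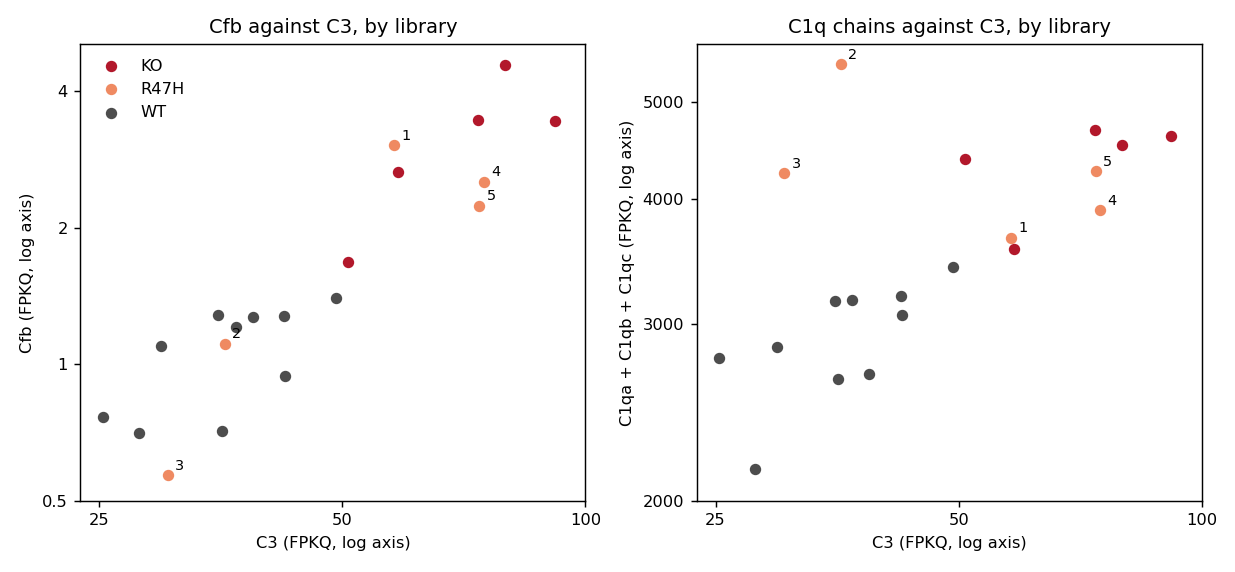
Each point is 1 library, with C3 (FPKQ, log axis) on the horizontal axis and Cfb (left panel) or the sum of the C1q chains (right panel) on the vertical axis (FPKQ, log axes), coloured by KO, R47H and WT and with R47H replicates numbered. R47H Rep2 lies among the WT libraries for C3 and Cfb, and R47H Rep3 lies among them for C3 but below them for Cfb. For the C1q sum R47H Rep2 and Rep3 lie at 5458 and 4248 FPKQ, above every WT library.

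The C1q chains did not show that split among the R47H libraries. R47H Rep2, with the highest C1qa, C1qb and C1qc of all 20 libraries, had the second lowest C3 and Cfb of its group. R47H Rep2 and Rep3 also had the highest Trem2 of their group and the highest summed FPKQ of all libraries, and R47H Rep4 and Rep5, with the lowest Trem2, had the highest C3. With 5 R47H libraries no correlation was computed, and the part of Trem2 level or of library sum in this split was not tested. As deviations from the group means over 20 libraries, C3 and Cfb followed each other (r = 0.82), whereas C3 and C1qa did not (r = 0.15). In WT alone C3 and Cfb gave r = 0.663 and rho = 0.588 (permutation p = 0.0401 and 0.0793, adjusted 0.104 and 0.201), r = 0.453 without the 2 extreme libraries and 0.401 within the sets, and neither coefficient passed after adjustment. C1qc and Cfb gave r = 0.799 and rho = 0.891 there (permutation p = 0.0059 and 0.00112, adjusted 0.0413 and 0.0191). Their r was 0.557 without the 2 libraries extreme in C1qc, 0.657 within the sets, and 0.03 as deviations over 20 libraries. The other pairs of a C1q chain with C3 or Cfb gave r from 0.628 to 0.709 in WT and from 0.211 to 0.464 within the sets. None of these passed after adjustment.

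Fibroblasts also make C3 and Cfb, and the 6 fibroblast and stroma markers summed to 0.502 to 1.75 FPKQ in KO, 0.0323 to 0.567 FPKQ in R47H and 0.0175 to 0.257 FPKQ in WT. None of the 6 reached a mean of 1 FPKQ in any group, and Lum was at 0 in every R47H and WT library. The markers were higher in KO than in WT without overlap, and their part in the C3 and Cfb differences was not tested.

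Cfp, which encodes properdin, had the smallest adjusted p of the members in KO. It was at 266, 254, 249.8, 279 and 293 FPKQ in KO Rep1 to Rep5, at 187, 245, 203, 185 and 192 FPKQ in R47H Rep1 to Rep5, and at 135, 164 and 180 FPKQ at the lowest, median and highest in WT. The 3 genotypes did not overlap, with KO above R47H and R47H above WT. Cfp rose by 0.72 in KO (SE 0.07, limma adjusted p = 1.39e-08) and by 0.31 in R47H (SE 0.07, adjusted p = 0.00254), and R47H minus KO was -0.41 (SE 0.08, adjusted p = 3.78e-04). Among all tested genes, R47H lay below KO without overlap for 10.8%. With values set by rank (quantile normalization), Cfp in R47H did not pass (0.18, limma adjusted p = 0.0617). Cfp is X-linked and Xist was detected in different shares of the groups. With the level of Xist as a covariate the differences were 0.71 in KO and 0.30 in R47H (adjusted p = 1.39e-07 and 0.00784).

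Of the anaphylatoxin receptors, C5ar1 and C3ar1 fell in KO and C5ar2 did not pass. C5ar1, the main receptor for the C5 fragment C5a, was at 159, 163, 168, 163 and 186 FPKQ in KO Rep1 to Rep5, at 257, 269.6, 263, 231 and 237 FPKQ in R47H Rep1 to Rep5, and at 214, 233 and 267 FPKQ at the lowest, median and highest in WT. All KO libraries were below all others, and R47H and WT overlapped almost wholly. C5ar1 fell by 0.51 in KO on the log2 scale (SE 0.06, limma adjusted p = 3.82e-07), where 13.3% of all genes lay below WT without overlap. The R47H difference of 0.07 did not pass (SE 0.06, adjusted p = 0.440), and R47H exceeded KO by 0.58 (SE 0.07, adjusted p = 1.97e-06), without overlap, as for 12.3% of all genes. The sign of the R47H difference depended on the WT set, at 0.18 against WT Rep1 to Rep5 (adjusted p = 0.0170) and -0.04 against WT Rep6 to Rep10 (adjusted p = 0.660), and was -0.05 with libraries scaled to equal sums.

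C3ar1, the receptor for the C3 fragment C3a, was at 256, 257, 264, 249 and 272 FPKQ in KO Rep1 to Rep5, at 342, 309, 266, 321 and 347 FPKQ in R47H Rep1 to Rep5, and at 250.1, 293 and 309 FPKQ at the lowest, median and highest in WT. KO lay at the low end of the WT range, and 3 of 5 R47H libraries were above it. C3ar1 fell by 0.15 in KO on the log2 scale (SE 0.06, limma adjusted p = 0.0401), a call that was lost when any 1 of 10 single libraries was left out (-0.15 to -0.13, adjusted p up to 0.0944). The R47H difference of 0.13 did not pass (SE 0.06, adjusted p = 0.111), though it would without R47H Rep3, at 0.20 (adjusted p = 0.0119). With any other single library left out the R47H difference did not pass, and was as low as 0.10 (limma adjusted p up to 0.268). R47H exceeded KO by 0.28 (SE 0.07, adjusted p = 0.00253).

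C5ar2 was the lowest of the receptors, at 4.56, 3.63, 3.53, 3.76 and 3.56 FPKQ in KO Rep1 to Rep5, at 5.20, 4.91, 4.07, 4.04 and 6.58 FPKQ in R47H Rep1 to Rep5, and at 3.59, 4.34 and 5.13 FPKQ at the lowest, median and highest in WT. The 3 groups overlapped. It did not pass against WT in KO (-0.14, SE 0.09, limma adjusted p = 0.205) or in R47H (0.16, SE 0.09, adjusted p = 0.245). R47H exceeded KO by 0.30 (SE 0.11, adjusted p = 0.0295), a call lost without any 1 of 5 libraries, the smallest difference being 0.21 without R47H Rep5 (adjusted p = 0.0939). The slope of C5ar2 on the level of Xist did not pass over all genes (-0.05 per log2 unit, limma adjusted p = 0.0926), where 0.166% of genes did. With the level of Xist as a covariate the R47H difference from WT was 0.26 (adjusted p = 0.0116) and the KO difference was -0.02 (adjusted p = 0.818).

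**Figure D3:**
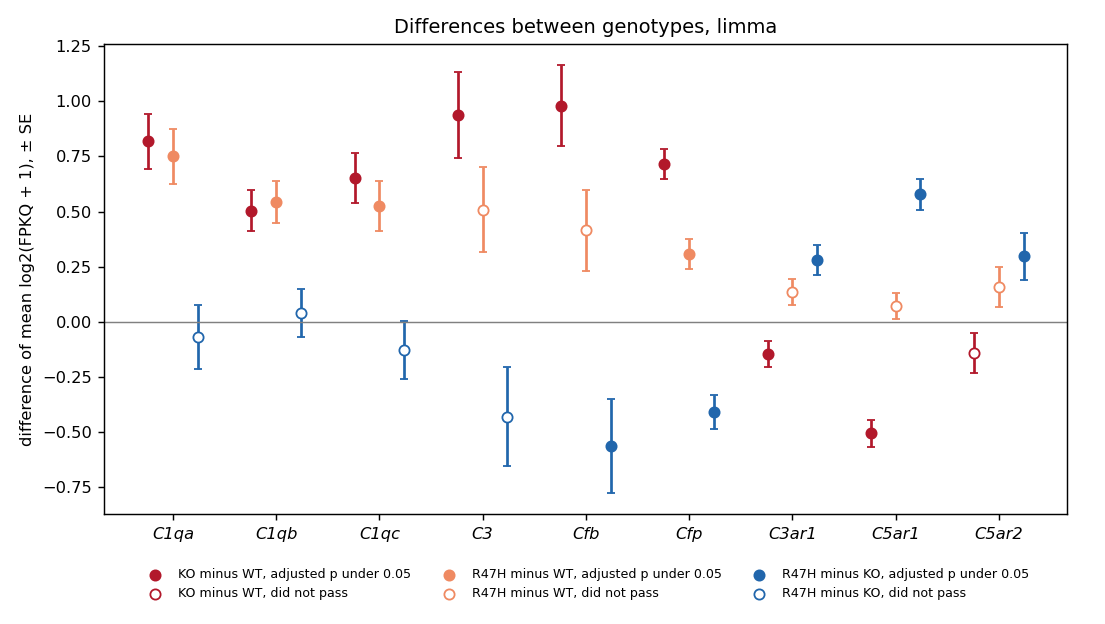
Difference of mean log2(FPKQ + 1) for each complement gene, KO minus WT, R47H minus WT and R47H minus KO from left to right, with bars of 1 SE from limma and filled points where the adjusted p was under 0.05. The C1q chains lie near 0.5 to 0.8 in both mutants, Cfp at 0.72 in KO and 0.31 in R47H, and C5ar1 at -0.51 in KO and 0.07 in R47H.

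Directly compared, R47H and KO differed in 5 of the 9 members, 3 higher in R47H (C3ar1, C5ar1, C5ar2) and 2 lower (Cfb, Cfp), while 22.8% of all tested genes passed as higher and 18.0% as lower. The 3 higher genes are the receptors and the 2 lower genes belong to the alternative pathway. With R47H set against WT Rep6 to Rep10 and KO against WT Rep1 to Rep5, only Cfp, C3ar1 and C5ar1 still passed. Their differences were -0.33, 0.40 and 0.36 (limma adjusted p = 0.0490, 0.00458 and 0.00213). Cfb (-0.34, adjusted p = 0.467) and C5ar2 (0.25, adjusted p = 0.280) did not pass there, and 1559 of 10843 genes did. C3 did not pass (-0.43, SE 0.22, limma adjusted p = 0.130), although it would without R47H Rep4, at -0.57 (adjusted p = 0.0492). With any other single library left out C3 did not pass, and its difference shrank to as little as -0.25 (limma adjusted p up to 0.378). It was -0.04 (adjusted p = 0.939) with each mutant set against its neighbouring WT set.

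The WT libraries themselves differed by number. WT Rep6 to Rep10 averaged 268 ± 35.7 FPKQ of C1qa and WT Rep1 to Rep5 averaged 338 ± 25.3 FPKQ (SD, n = 5 each). For C1qb the means were 1542 FPKQ in Rep6 to Rep10 and 1846 FPKQ in Rep1 to Rep5, and for C1qc they were 809 FPKQ and 1024 FPKQ in the same order. Rep6 to Rep10 minus Rep1 to Rep5 was -0.34 for C1qa (limma adjusted p = 0.109), -0.26 for C1qb (adjusted p = 0.0933) and -0.34 for C1qc (adjusted p = 0.0601). C5ar1 was the only member that passed, at 0.22 (adjusted p = 0.0157), where 6.51% of all tested genes did (3.63% higher and 2.88% lower). The numbers are the only sign of a set in the labels. Xist was above 1 FPKQ in 3 of 5 WT Rep1 to Rep5 and in 1 of 5 WT Rep6 to Rep10 libraries. Its part in the difference between the WT sets was not tested. With the level of Xist as a covariate, C1qa, C1qb and C1qc still passed in limma. They rose by 0.77, 0.46 and 0.62 in KO and by 0.71, 0.50 and 0.49 in R47H. Against WT Rep1 to Rep5 alone the KO rises were 0.65 for C1qa, 0.37 for C1qb and 0.48 for C1qc, and against WT Rep6 to Rep10 they were 0.99, 0.64 and 0.83, each over 1.5 times as large. The R47H rises were 0.58, 0.41 and 0.35 against Rep1 to Rep5 and 0.92, 0.68 and 0.70 against Rep6 to Rep10, in the same order of genes. The least of these, C1qc in R47H against Rep1 to Rep5, had a limma adjusted p of 0.0248. Calls for the C1q chains, Cfp in both mutants and C3, Cfb and C5ar1 in KO held against each set.

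**Figure D4:**
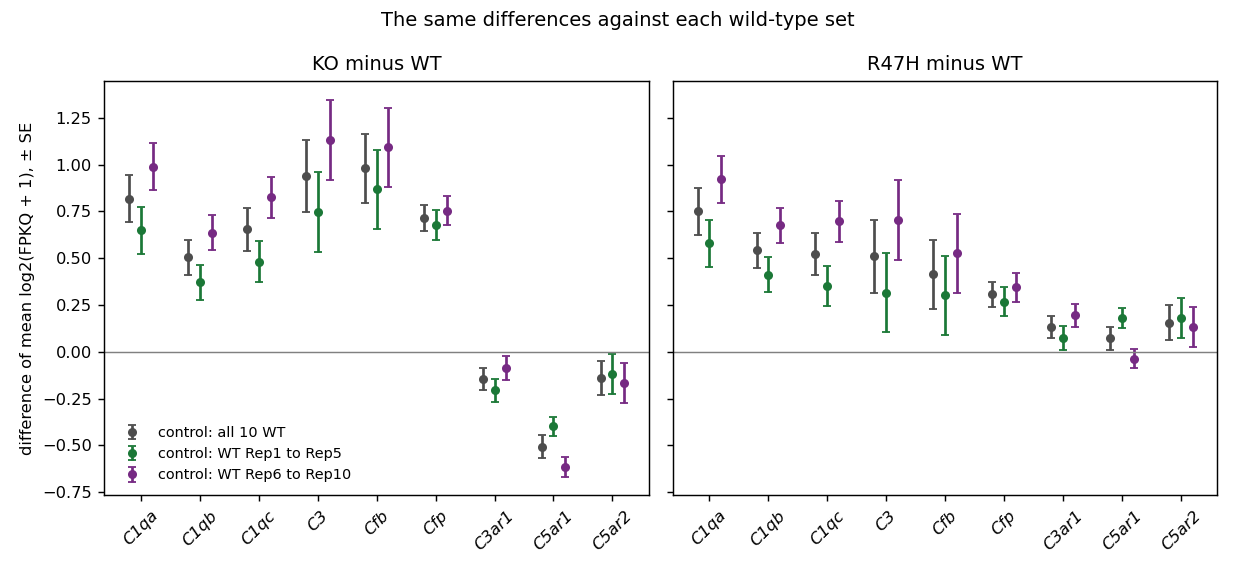
Difference of mean log2(FPKQ + 1) from WT for each complement gene, KO on the left and R47H on the right, against all 10 WT libraries, WT Rep1 to Rep5 or WT Rep6 to Rep10, with bars of 1 SE. For C1qa in KO the 3 values are 0.82, 0.65 and 0.99, and for C5ar1 in R47H they are 0.07, 0.18 and -0.04.

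On the per-length scale C1qb was the highest and Cfb the lowest member in each genotype. In KO the order of means was C1qb, C1qc, C1qa, Cfp, C3ar1, C5ar1, C3, C5ar2 and Cfb, in which Cfp and C3ar1 overlapped and so did C5ar2 and Cfb. In R47H Cfp came after C3ar1 and C5ar1, and each neighbouring pair of these receptors and Cfp overlapped. In WT the ranges of C1qa and C3ar1 overlapped, as did those of C3ar1 and C5ar1, and C5ar1 was apart from Cfp. C1qb stood at the 99.8th percentile of tested genes in all genotypes, while C3 stood at the 88.6th in KO, 84.3rd in R47H and 77.4th in WT. Cfb stood at the 15.7th percentile in KO, 7.92nd in R47H and 1.53rd in WT.

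Of 55 other complement genes on a list of serum components, regulators and receptors, 14 were tested. In KO 5 rose and 2 fell, with a median of 0.15, and in R47H 2 rose and 1 fell, with a median of 0.00, beside medians of 0.01 and 0.04 over all tested genes. These counts are close to the background, in which 52.0% of all tested genes passed in KO and 21.2% in R47H. Fcna, a ficolin that starts the lectin pathway, was the 1 tested gene of the list past 1.5-fold and averaged 17.6 ± 2.42 FPKQ in KO, 11.7 ± 2.12 FPKQ in R47H and 8.57 ± 1.07 FPKQ in WT (SD, n = 5, 5 and 10). It rose by 0.96 in KO (SE 0.10, limma adjusted p = 3.71e-08) and by 0.40 in R47H (SE 0.10, adjusted p = 0.00549), and R47H was below KO (-0.56, adjusted p = 5.56e-04).

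Among the abundant genes of the list, Itgam, the alpha chain of complement receptor CR3, averaged 150.2 ± 11.0 FPKQ in KO, 168 ± 31.3 FPKQ in R47H and 221 ± 15.8 FPKQ in WT. It fell by 0.55 in KO and by 0.41 in R47H on the log2 scale (limma adjusted p = 1.03e-05 and 0.00120). Its partner Itgb2 did not pass in either (KO -0.04, R47H -0.08). Calr, calreticulin, which can bind C1q at the cell surface, rose by 0.41 in R47H (adjusted p = 4.30e-04) and gave 0.14 in KO (adjusted p = 0.121). It also differed between the WT sets, at 586 ± 30.9 FPKQ in WT Rep6 to Rep10 and 463 ± 11.3 FPKQ in WT Rep1 to Rep5 (SD, n = 5 each, difference 0.34, adjusted p = 3.09e-04). R47H averaged 694 ± 32.3 FPKQ, above both sets, and KO averaged 576 ± 25.2 FPKQ, between them. Lrp1, a scavenger receptor that works with calreticulin, fell by 0.42 in KO (adjusted p = 3.01e-06) and gave -0.04 in R47H (adjusted p = 0.691). Cd93, a receptor once described as binding C1q, rose by 0.21 in KO (adjusted p = 0.00795) and gave 0.04 in R47H. Other calls in KO, named after their values were seen, were C1ra (0.29) and Cr1l (0.18). C1ra encodes a protease of the C1 complex and Cr1l a membrane regulator.

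The other list members fell below the minimum mean of 1 FPKQ and had no test, and a few are given as examples. The regulator Cd55 (decay-accelerating factor) averaged 2.20 ± 0.529 FPKQ in KO, 0.356 ± 0.117 FPKQ in R47H and 0.151 ± 0.0875 FPKQ in WT. C2, the classical pathway's counterpart of Cfb and its genomic neighbour, averaged 0.499 FPKQ in KO, 0.294 FPKQ in R47H and 0.162 FPKQ in WT. C4a went the other way, at 0.0530 FPKQ in KO, 0.0938 FPKQ in R47H and 0.135 FPKQ in WT. Cfd, Cfi, C6 and C7 were at 0 in every library. With no minimum, 40 genes of the list could be tested and 11 rose and 3 fell in KO. Under that setting 3536 rose and 2729 fell in KO among all 23425 genes tested.

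**Figure D5:**
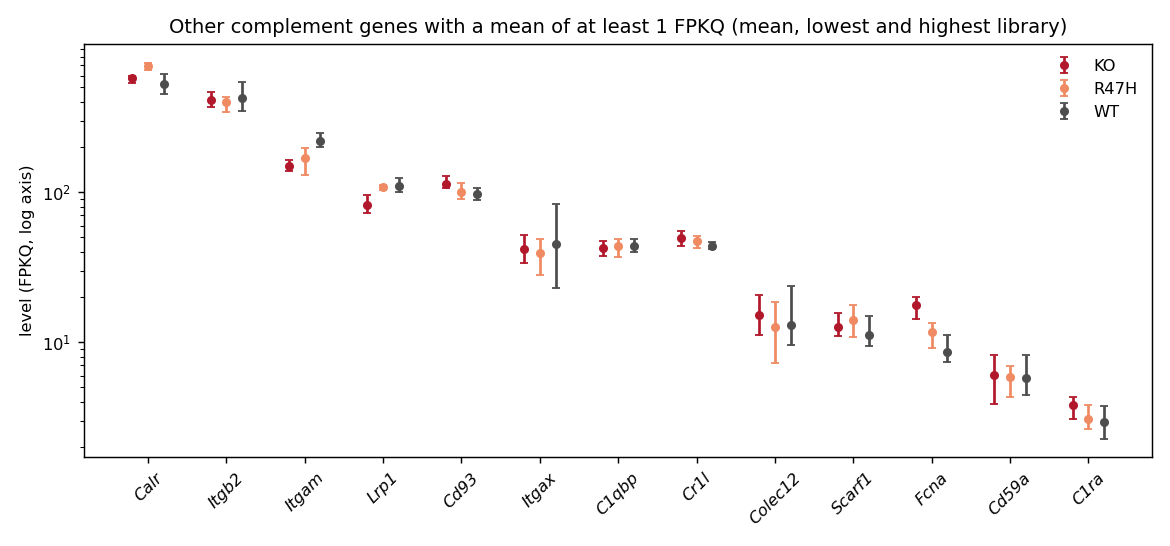
Mean level (FPKQ, log axis) with the lowest and highest library of 13 tested genes of the wider complement list, KO, R47H and WT from left to right within each gene. Fcna is higher in KO than in WT without overlap, and Itgam is lower in both mutants without overlap.

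Regulators described in the literature for C1q, C3 or Cfb genes were examined as a list of 13. In KO 7 rose and 2 fell, and in R47H 7 rose and 0 fell in limma, with 0 falling also at an unadjusted p under 0.05. Over all tested genes 28.2% rose and 23.7% fell in KO, and 13.4% rose and 7.83% fell in R47H. Maf, whose product binds MAF elements, averaged 142 ± 8.20 FPKQ in KO, 96.5 ± 15.3 FPKQ in R47H and 78.9 ± 8.35 FPKQ in WT, with a rise of 0.85 in KO (limma adjusted p = 2.46e-08) and of 0.28 in R47H (adjusted p = 0.0210). Rxra, a nuclear receptor partner, rose by 1.53 in KO and by 0.54 in R47H (adjusted p = 3.49e-13 and 1.67e-05). Nr1h3, which encodes the oxysterol receptor LXR alpha, rose by 0.29 in KO and by 0.66 in R47H (adjusted p = 0.0167 and 3.91e-05), and R47H exceeded KO (0.37, adjusted p = 0.0124). Pparg, a lipid-sensing nuclear receptor, fell by 0.61 in KO on the log2 scale (adjusted p = 2.16e-06) and gave 0.06 in R47H (adjusted p = 0.658). Irf8 rose by 0.21 in KO and by 0.19 in R47H (adjusted p = 0.00476 and 0.0244). Spi1, which encodes PU.1, fell by 0.22 in KO (adjusted p = 0.0102) and gave 0.00 in R47H.

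Of 15 interferon-responsive genes, 3 rose and 2 fell in KO, and 1 rose in R47H, smaller shares than the 52.0% and 21.2% of all tested genes that passed. Gbp2 averaged 33.2 ± 8.01 FPKQ in KO, 22.0 ± 6.46 FPKQ in R47H and 16.6 ± 2.24 FPKQ in WT, and rose by 0.93 in KO (limma adjusted p = 1.99e-05). Gbp3 rose by 1.01 in KO (adjusted p = 5.42e-05), while Isg15 and Oasl2 fell by 0.54 and 0.68 on the log2 scale (adjusted p = 0.0337 and 0.00228).

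The genes whose pattern over the 20 libraries was most like each member were found by Pearson's correlation of log2 values, which mixes genotype and library differences. The mean of the C1q chains was most like Tmem51 (r = 0.96), the class I gene H2-D1 (r = 0.95) and the apolipoprotein gene Apoc2 (r = 0.95). C3 and Cfb were both most like Gbp2 (r = 0.95 and 0.94) and then Gbp3, and each had the other among its 5 most alike genes (r = 0.92). Cfp was most like Adipor1 and Fcgrt (r = 0.98 and 0.97), C5ar1 like Sh3bp2 and Atf3 (r = 0.97 each), C3ar1 like Sema4d (r = 0.80) and C5ar2 like Zfp260 (r = 0.75). As deviations from group means, the C1q mean was most like H2-K1 (r = 0.90) and Tmem51 (r = 0.89).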

How the data were processed

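The authors deposited 1 table per library with a column of FPKQ values, treated here as an FPKM because the sources used here do not define it. RSEM and the GRCm38 genome were used, per the submitters' processing notes, and versions and settings are not stated there. Read pairs had 75 bases per read, per the labels. A gene was tested where its mean over the 20 libraries reached 1 FPKQ (10843 of 51456 genes). The test was done on log2(FPKQ + 1) with limma 3.58.1 in R 4.3.3 (trend, 1 model of the 3 groups, no covariate), with Benjamini-Hochberg adjustment over all tested genes, and every adjusted p printed for a gene is from this fit or an alternative of it. Fold changes on this scale understate changes of low genes. All 9 members passed the minimum, so the exact permutation test planned for untested members was not needed. Depth came from low values of genes with 1 transcript, of which 86.1% to 89.8% per library were whole fragments within 0.1 fragment. These shares were incomplete, so no count test was run, and the estimates cover counting error only. Pearson correlations within groups ran from 0.980 to 0.995 and no 2 libraries were identical. Each library is 1 animal per the labels, so p-values measure the spread between animals. The members and lists were chosen with earlier results of these data known. The rule for named genes took all members, genes of the wider complement list called at 1.5-fold or averaging at least 100 FPKQ, and the 5 genes most like each member. Neighbouring genes, the regulators, interferon genes and markers picked from their lists and the alternatives with Xist and with paired control sets were chosen after seeing the data. Permutation p-values of correlations used 100000 resamples, two-sided. The fit was tested on simulated data. Promoter sequences are RefSeq's for GRCm38.p6, whose starts can differ from the GENCODE M21 gene ends. Python 3.11.15, numpy 2.4.6, pandas 2.3.3, scipy 1.17.1 and matplotlib 3.10.9 were used. Some items are not reported here.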

Additional observations from a re-analysis of the deposited data

Results flagged for a closer look

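Of 27 sets of 5 or 10 libraries examined (9 genes in 3 genotypes), 2 held a library far from the rest of its group, and chance gives about 1 in 20. C1qb was at 1950 FPKQ in KO Rep5, with a gap to the next KO library of 0.819 of the group's range. The other C1q chains were also lowest in that library, at 450 FPKQ for C1qa and 1169 FPKQ for C1qc. Without KO Rep5, the KO difference of C1qb from WT was 0.58 in limma, and R47H minus KO was -0.03. C5ar2 was at 4.56 FPKQ in KO Rep1, the highest of its group, with a gap of 0.784 of the range.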

How the results depend on the processing

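Alternatives covered the pseudocount, the minimum level, the control set, scaling, robust moderation, the groups in the fit, a replicate block, the level of Xist, and leaving out each library. Over the 9 members and 3 comparisons, 827 of 885 alternative values kept their direction and their side of the limma threshold. Many of these could not move the difference, since a library outside the compared groups does not enter it. Against WT, the neighbouring sets also repeat the values of the single WT sets. The share is therefore not a measure of stability. A minimum mean of 5 FPKQ left out Cfb and C5ar2. The causes of the changes below were not tested.

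In KO against WT, C3ar1 no longer passed with no minimum (-0.15), against WT Rep6 to Rep10 (-0.087), under quantile normalization (-0.094) and with Xist (-0.14), and ran from -0.17 to -0.13 with single libraries left out. In R47H against WT, C3 passed against WT Rep6 to Rep10 (0.70, also as the neighbouring set) and ran from 0.37 to 0.69 with single libraries left out, and Cfb ran from 0.27 to 0.61. Cfp did not pass under quantile normalization (0.18) or the replicate block (0.27). C3ar1 passed against WT Rep6 to Rep10 (0.19, also as the neighbouring set) and ran from 0.10 to 0.20. C5ar1 passed against WT Rep1 to Rep5 (0.18) and with the block (0.18), and turned negative against WT Rep6 to Rep10 (-0.037, also as the neighbouring set), under quantile normalization (-0.028) and with equal sums (-0.051). C5ar2 passed with Xist (0.26).

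In R47H against KO, with each mutant set against its neighbouring WT set, C1qa (0.27) and C1qc (0.22) turned positive and Cfb (-0.34) and C5ar2 (0.25) no longer passed. C3 was -0.04, C1qb 0.30 and C5ar1 0.36 there, beside -0.43, 0.04 and 0.58 as reported. C1qa ran from -0.19 to 0.022 and C1qb from -0.037 to 0.078 with single libraries left out, and C1qb was -1.87e-04 with equal sums. C3 ran from -0.57 to -0.25. Cfb did not pass with a pseudocount of 0.1 (-0.84), no minimum (-0.57) or 2 groups in the fit (-0.57), and ran from -0.71 to -0.37. C3ar1 did not pass under quantile normalization (0.15). C5ar2 did not pass with no minimum (0.30), equal sums (0.26) or 2 groups in the fit (0.30), and ran from 0.21 to 0.35.

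The number of genes called in R47H against KO was 1559 with the neighbouring sets and 4417 in the reported fit. With no minimum, calls on the wider complement list were 14 in KO (7 reported) and 7 in R47H against KO (4 reported). Over all 23425 genes tested with no minimum, 6265 were called in KO and 4318 in R47H against KO. Higher genes were 54.3%, 63.1% and 55.9% of calls in KO, in R47H and in R47H against KO, and 36.1%, 20.7% and 51.0% with equal sums, which moved the R47H median of all genes by -0.11. Under quantile normalization they were 54.3%, 48.6% and 47.5%. Correlations of same-numbered libraries ran from -0.15 to 0.22 for KO and WT, from 0.04 to 0.16 for R47H and WT and from -0.12 to 0.31 for R47H and KO. They were not all over 0.1 in any comparison, so numbers were not taken as pairs. The replicate block used WT Rep1 to Rep5 only, so 2 choices changed together. C5ar1 in R47H passed against that set without the block too (adjusted p = 0.0170), whereas Cfp in R47H passed without the block (adjusted p = 0.0188) and not with it (adjusted p = 0.0512).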

Other observations

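Levels of C5ar2 by Xist are given here because a pattern was noticed after its values were seen. Its level was 3.53 to 3.76 FPKQ in the 4 KO libraries with Xist above 1 FPKQ and 4.56 FPKQ in the other, and 4.04 to 5.20 FPKQ in the 4 such R47H libraries and 6.58 FPKQ in the other. In WT it was 3.59 to 4.41 FPKQ in the 4 libraries with Xist and 4.06 to 5.13 FPKQ in the other 6. With the log2 level of Xist as a covariate, the limma slope of C5ar2 was -0.05 per log2 unit of Xist (SE 0.01, unadjusted p = 1.96e-04, adjusted p = 0.0926), so it did not pass over all genes, where 0.166% did. Of the other 8 members, the X-linked Cfp among them, 0 passed, with slopes from -0.02 to 0.02 and the smallest unadjusted p at 0.215.

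Of the genes beside the members, some moved in the same direction as the member in KO and some did not. Around the C1q cluster, Lactbl1, Ephb2 and Epha8 were near 0 and had no test. Ephb2, the highest of them, averaged 0.0409 FPKQ in KO, 0.0678 FPKQ in R47H and 0.0487 FPKQ in WT. Zbtb40 gave -0.01 in KO (limma adjusted p = 0.954) and 0.30 in R47H (adjusted p = 0.0179). Beside C3, Gpr108 rose by 0.14 in KO (adjusted p = 0.0206) while Trip10 fell by 0.48 on the log2 scale. Tnfsf14, also beside C3, fell by 0.51 in KO (limma adjusted p = 6.7e-05). Beside Cfp, Elk1 rose by 0.32 in KO and Uxt fell by 0.29 (limma adjusted p = 4.3e-05 and 0.0102). Beside Cfb, Skiv2l rose by 0.11 in KO and Nelfe fell by 0.26 (limma adjusted p = 0.0314 and 0.00245). The untested C2, also beside Cfb, had the same order of genotypes as Cfb, at 0.499 FPKQ in KO, 0.294 FPKQ in R47H and 0.162 FPKQ in WT. Beside C3ar1, which fell in KO, the C-type lectin gene Clec4a1 averaged 151 FPKQ in KO, 104 FPKQ in R47H and 57.4 FPKQ in WT and rose by 1.40 in KO and by 0.83 in R47H (adjusted p = 3.4e-05 in R47H). Slc2a3, also beside C3ar1, fell by 0.37 in KO and by 0.53 in R47H (limma adjusted p = 0.00363 and 5.38e-04). Foxj2 and Necap1 there did not pass in either mutant. Beside the C5ar cluster, Dhx34 rose by 0.19 in KO (limma adjusted p = 0.00325), and Meis3, Inafm1 and Ccdc9 did not pass in either mutant.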
